A study of Mus musculus with 12 samples.

Results

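The genes described here encode the proteins of the mouse mitochondrial ribosome. They were taken by name, as every protein-coding gene of the deposited count table whose symbol is Mrpl or Mrps followed by a number and an optional letter. The name alone chose them, with no measured value. The rule found 78 genes among the 52550 genes of the table, 49 named for the large subunit (Mrpl) and 29 for the small subunit (Mrps). RNA was sequenced from inguinal white adipose tissue (WAT) and from brown adipose tissue (BAT) of mice on a high-fat diet. The groups had 3 libraries each, 12 in all. They were BAT of Mcu fl/fl AKO mice, BAT of Mcu fl/fl control mice, WAT of Mcu fl/fl AKO mice and WAT of Mcu fl/fl control mice. AKO stands for an adipose knockout of Mcu, which encodes the pore through which calcium enters mitochondria, and the controls carry the same floxed allele. Which Cre line was used, which exon is floxed and how old the mice were is not given in the sources used here, nor is their sex. Nothing in the labels says that each library came from a separate animal, so the p-values below rest on library-to-library spread, which may be technical.

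The mitochondrial ribosome sits in the mitochondrial matrix and translates the few mRNAs of mitochondrial DNA, which encode core subunits of the respiratory chain and of ATP synthase. Its rRNAs come from mitochondrial DNA, whereas all of its proteins are encoded in the nucleus and imported, so both genomes must supply parts of the same particle. Some of the proteins have counterparts in bacterial ribosomes and others are specific to mitochondria. Brown adipocytes hold many more mitochondria than white adipocytes do and burn fuel as heat through Ucp1. The comparisons below ask how the RNA of this gene group differed between the depots and after loss of Mcu.

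The libraries held 15692588 to 18967159 counts each. Levels are given as CPM (counts scaled to a common library size) after TMM scaling, which corrects library totals for a few genes that take a large share of the counts, and levels between genes are given as the deposited FPKM. Mcu measured 9.47, 14.6 and 8.29 CPM in BAT AKO, against 26.6, 28.8 and 24.0 CPM in BAT control. It measured 10.1, 12.5 and 10.9 CPM in WAT AKO, against 18.02, 18.8 and 18.8 CPM in WAT control. The AKO libraries lay below all controls in both depots, but with edgeR's quasi-likelihood test the adjusted p was 0.20 in BAT and 0.08 in WAT. Brown adipocyte markers took 0.598% to 0.737% of counts in BAT and 0.0068% or less in WAT. Skeletal muscle markers took over 1% of counts in BAT AKO 2 (1.87%), WAT AKO 2 (2.51%) and WAT control 1 (1.42%), and 0.362% or less in the other 9 libraries.

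Of the 78 genes, 77 had enough counts to be tested in every comparison. The exception was Mrpl53, a large subunit gene at chr6:83109040-83109939 on the plus strand (mm10), which had 0 counts in all 12 libraries. It has 790 exonic bases in the annotation and shares 695 of them, on the same strand, with Gm42688, which measured at most 0.365 CPM. The sources do not state how reads on shared bases were counted, so the 0 is not read as absence of the RNA.

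The summed level of the gene group was 4891, 4570 and 4741 CPM in BAT AKO and 4796, 4805 and 4496 CPM in BAT control. In WAT it was 1940, 2196 and 2065 CPM in AKO and 2285, 2061 and 1996 CPM in control. Every BAT library lay above every WAT library, and AKO and control overlapped in both depots. The mean BAT sum was 2.29 times the WAT sum in AKO mice and 2.22 times in control mice. The ratio was alike for both subunits, at 2.28 for the large and 2.30 for the small subunit in AKO mice, and 2.23 for the large and 2.21 for the small in control mice. As a share of all counts, without TMM scaling, the group took 0.403% ± 0.0181 in BAT AKO, 0.407% ± 0.0146 in BAT control, 0.250% ± 0.00697 in WAT AKO and 0.236% ± 0.0108 in WAT control (SD, n = 3 each). In bulk tissue, fewer cells of a type and less RNA per cell cannot be told apart.

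By FPKM, which divides by the annotated exonic bases of a gene, Mrpl34 was the highest of the group in brown fat. It had 147 ± 23.2 FPKM in BAT AKO and 148 ± 27.7 FPKM in BAT control (SD, n = 3). Mrps36 followed with 97.9 ± 3.50 FPKM in BAT AKO and 85.9 ± 6.85 FPKM in BAT control, and Mrps21 with 85.3 ± 4.13 FPKM in BAT AKO and 84.7 ± 4.86 FPKM in BAT control. Mrps36 and Mrps21 did not differ beyond their spread in control mice. The order was different in WAT. Mrps21 (54.6 ± 4.84 FPKM), Mrps6 (47.2 ± 5.97 FPKM) and Mrpl41 (42.0 ± 1.49 FPKM) led in WAT AKO. Mrps6 (65.0 ± 3.70 FPKM), Mrps21 (51.0 ± 5.29 FPKM) and Mrpl2 (40.3 ± 1.73 FPKM) led in WAT control. Mrpl33 was the lowest of the genes with counts in each group, from 0.854 FPKM in BAT AKO to 1.21 FPKM in WAT AKO. Its counts per library were 88 to 190, and Mrps18c, the gene with the next lowest FPKM in BAT, had 33 to 65. The FPKM order thus depends on the annotated exonic bases, 607 for Mrpl34 and 7326 for Mrpl33. By CPM, Mrpl42 lay above Mrpl34 in BAT, with means of 175 against 105 in AKO and 169 against 104 in control mice. The median over the 78 genes was 20.3 FPKM in BAT AKO, 20.1 in BAT control, 13.5 in WAT AKO and 12.3 in WAT control, and 10 FPKM were reached by 54 genes in BAT AKO, 55 in BAT control and 46 in each WAT group.

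Mitochondrial ribosomal protein genes were higher in brown than in white fat almost throughout. In control mice, 74 of the 77 tested genes were higher in BAT and 1 was lower at an adjusted p under 0.05 (edgeR's quasi-likelihood test, Benjamini-Hochberg over 15031 genes). Of all 15031 genes tested, 24.4% were called higher and 25.7% lower, or 50.1% in all. At an unadjusted p under 0.05 there were 76 genes of the group, where 56.8% of all genes were so. The median log2 fold change over the group was 1.00, a 2.00-fold difference, against -0.04 over all genes, and the middle 50% of the group lay between 0.75 and 1.39. BAT and WAT libraries did not overlap for 75 genes higher in BAT and for 1 lower, where 30.5% and 30.8% of all genes, 61.4% in all, did so. The large subunit median was 1.01, with 46 of 48 tested genes higher. The small subunit median was 0.97, with 28 of 29 higher and 1 lower. The 47 genes with a counterpart in bacterial ribosomes had a median of 1.15, and the 30 tested genes specific to mitochondria had 0.93, all 30 of them higher.

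**Figure D1:**
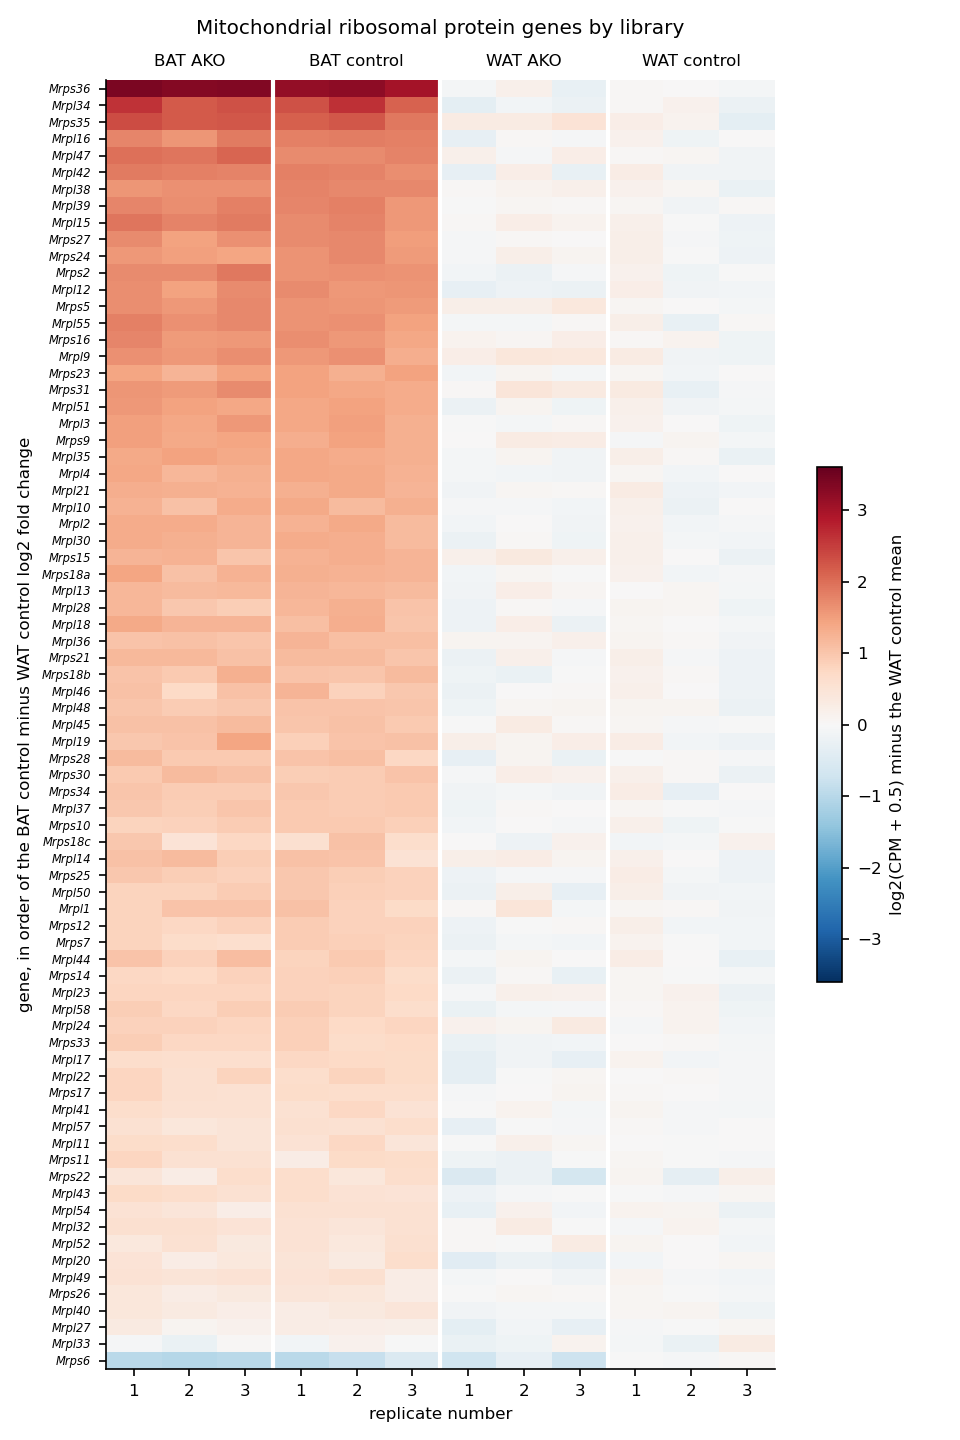
Levels of the 77 genes with counts in each of the 12 libraries, as log2(CPM + 0.5) minus the WAT control mean of the gene (colour); genes run down in the order of their BAT control over WAT control log2 fold change. The BAT columns are red for nearly all genes, Mrps36 and Mrpl34 most, while Mrps6 is blue and Mrpl33 near white; the AKO and control columns of a depot look alike.

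The same comparison in AKO mice uses none of the same libraries and gave 75 of 77 genes higher in BAT and none lower, where 28.8% and 30.5% of 15671 genes were called higher and lower, or 59.3% in all. BAT and WAT libraries did not overlap for 75 genes higher and 1 lower, where 30.1% and 37.4% of all genes, 67.5% in all, did not. In DESeq2 the counts were 75 and 1, in limma voom 75 and 0, and 76 genes had an unadjusted p under 0.05 in edgeR, where 63.8% of all genes did. The median was 1.07, with 1.05 for the large and 1.15 for the small subunit. All 74 genes higher in control mice were among those 75, so the shared genes made up 98.7% of the AKO list and 100% of the control list. With nearly all of the 77 genes called in each genotype, such an overlap was almost fixed in advance and is no measure of agreement. Across the 77 genes the fold changes in the pair of comparisons had a Pearson r of 0.97 and a Spearman rho of 0.96, a description across genes, since genes are not replicates. More than 2-fold differences were found for 47 genes in AKO mice and 39 in control mice, 38 of them in both, and 3 genes exceeded 4-fold in each.

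**Figure D2:**
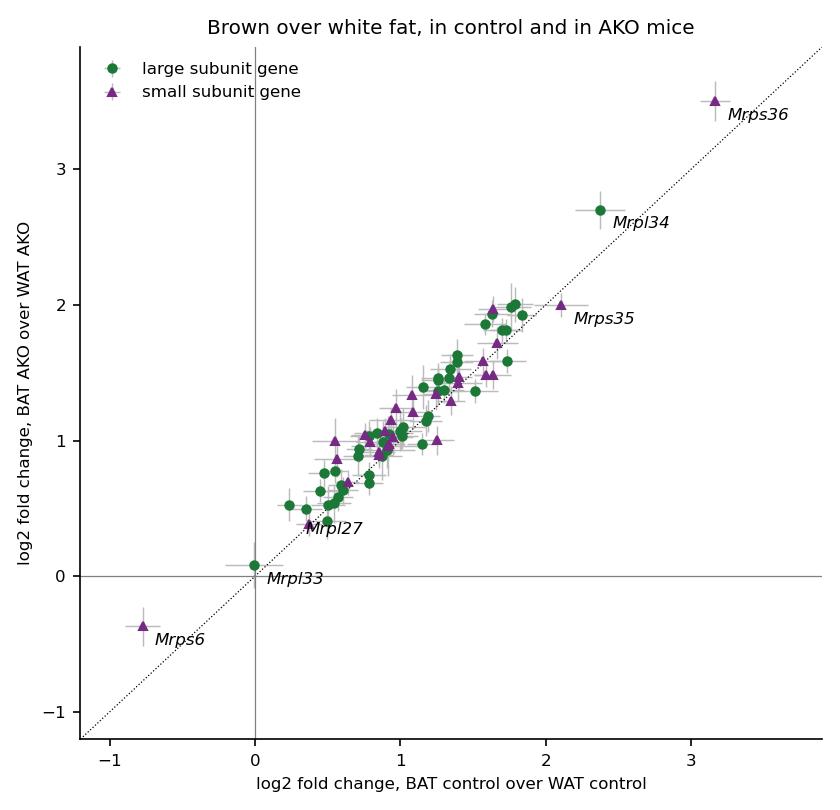
Log2 fold change of BAT AKO over WAT AKO (vertical) against that of BAT control over WAT control (horizontal) for 77 genes; points are genes by subunit, grey bars are standard errors and the dotted line marks equal values. Points follow the line from Mrps6, below 0 on both axes, through Mrpl33 near 0, to Mrpl34 and Mrps36.

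On the log2 scale the group stood 1.08 above the median of all genes in AKO mice and 1.04 in control mice. With library totals in place of TMM the median of all genes moved to -0.60 in AKO and -0.40 in control mice, and that of the group to 0.49 in AKO and 0.65 in control mice. The distance from all genes was then 1.09 in AKO and 1.04 in control mice. The calls were 56 higher and 2 lower in AKO mice and 60 higher and 1 lower in control mice, while all genes gave 2068 higher and 8759 lower in AKO and 2107 higher and 6253 lower in control mice. Such scaling shifts all genes by about the same amount, so the distance from their median could hardly change, while the calls did.

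Mrps36 had the largest difference. It measured 150.3, 143 and 145 CPM in BAT AKO, 130.0, 134 and 115 CPM in BAT control, 13.3, 15.8 and 11.4 CPM in WAT AKO, and 14.6, 14.1 and 13.4 CPM in WAT control. The depots were separated by a wide gap and the WAT groups overlapped. In edgeR the depots differed by log2 3.50 (SE 0.15) at an adjusted p of 5.6e-06 in AKO mice and by 3.16 (SE 0.10) at 2.2e-05 in control mice. Despite its name, the Mrps36 product is known as a subunit of the 2-oxoglutarate dehydrogenase complex, which feeds the citric acid cycle, rather than as a lasting part of the ribosome. The other genes of that complex, looked at after the value of Mrps36 was seen, had log2 fold changes of 3.47 in AKO and 3.30 in control mice for Ogdh, 3.03 in AKO and 2.93 in control mice for Dlst, and 2.59 in AKO and 2.29 in control mice for Dld. Its pseudogenes Mrps36-ps1, Mrps36-ps2 and Mrps36-ps3 held 35, 16 and 0 counts over all libraries.

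Mrpl34, the counterpart of a small bacterial protein of the large subunit, came next. It measured 122, 92.6 and 99.8 CPM in BAT AKO, 98.4, 125 and 88.3 CPM in BAT control, 15.4, 18.4 and 16.9 CPM in WAT AKO, and 20.5, 22.2 and 17.1 CPM in WAT control. Genotypes overlapped within each depot and depots did not. The log2 fold change between depots was 2.70 (SE 0.14) in AKO and 2.37 (SE 0.17) in control mice. Mrps35, a small subunit protein specific to mitochondria, had the next largest difference in control mice, and in AKO mice came close behind Mrpl47. It measured 82.1, 74.6 and 77.1 CPM in BAT AKO, 72.6, 76.6 and 60.2 CPM in BAT control, 19.7, 19.5 and 22.3 CPM in WAT AKO, and 18.8, 17.4 and 12.2 CPM in WAT control. Its log2 fold change was 2.00 (SE 0.09) in AKO and 2.11 (SE 0.19) in control mice.

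Several other genes of both subunits were higher in BAT with little spread between libraries. Mrpl47, the counterpart of a bacterial protein at the exit of the peptide tunnel, had log2 fold changes of 2.00 in AKO and 1.79 in control mice. Mrpl16, whose bacterial counterpart lies near the tRNA sites of the large subunit, had 1.92 in AKO and 1.83 in control mice. Mrpl39, a large subunit protein specific to mitochondria, had 1.81 in AKO and 1.73 in control mice. Among small subunit genes with bacterial counterparts, Mrps2 had 1.97 in AKO and 1.63 in control mice, and Mrps5 had 1.48 in AKO and 1.59 in control mice. Mrpl55, specific to mitochondria, had 1.86 in AKO and 1.58 in control mice. Mrpl12, whose human protein has been reported to bind the mitochondrial RNA polymerase, had 1.93 in AKO and 1.63 in control mice. All of these passed the test in both genotypes. The smallest differences that passed it in control mice were those of Mrpl40 (0.35) and Mrps26 (0.37).

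Mrps6, a small subunit gene with a bacterial counterpart, went the other way. It measured 30.8, 29.7 and 31.1 CPM in BAT AKO, 31.3, 34.5 and 42.4 CPM in BAT control, 37.1, 50.2 and 36.6 CPM in WAT AKO, and 60.8, 59.9 and 63.1 CPM in WAT control. WAT control was the highest group and BAT AKO the lowest, and no group overlapped a group of the same depot or the same genotype. In control mice Mrps6 was lower in BAT, with edgeR giving log2 -0.77 (SE 0.12) at an adjusted p of 0.0023. In AKO mice the value was -0.37 (SE 0.15, adjusted p = 0.060). The gene lies at chr16:92058270-92112227 on the plus strand and shares 159 exonic bases with Slc5a3, a sodium and myo-inositol cotransporter gene on the same strand. It shares a further 305 bases on that strand with the protein-coding gene Gm49711, which was not analysed here. Slc5a3 measured 22.2, 25.2 and 32.0 CPM in BAT AKO, 24.3, 23.7 and 64.1 CPM in BAT control, 76.7, 101 and 58.3 CPM in WAT AKO, and 111, 108 and 128 CPM in WAT control. Its log2 fold change between depots was -1.50 in AKO and -1.63 in control mice, so both genes were lower in BAT control, and whether reads of the shared bases took part was not tested.

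**Figure D3:**
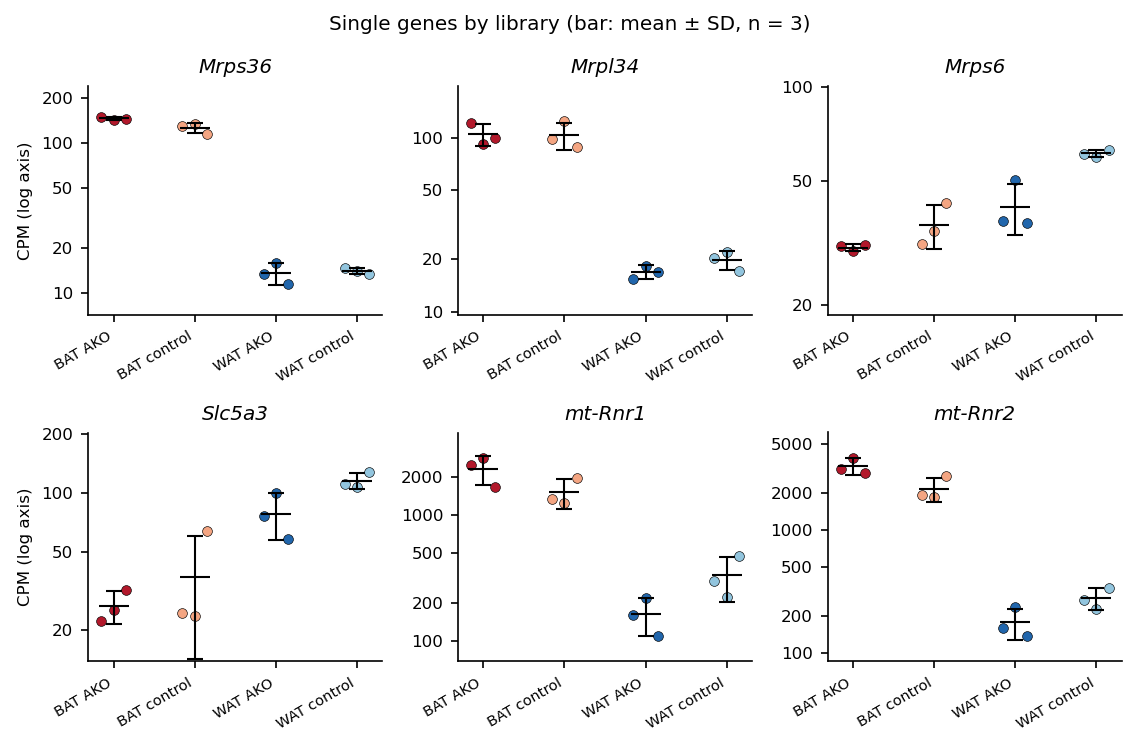
CPM on a log axis in each library (points) with group mean and SD (bars, n = 3) for Mrps36, Mrpl34 and Mrps6, for Slc5a3, which shares exon bases with Mrps6, and for both mitochondrial rRNAs. Mrps36, Mrpl34 and the rRNAs lie higher in BAT, Mrps6 and Slc5a3 higher in WAT, with WAT control the highest group of Mrps6.

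A pair of large subunit genes showed no call between depots in control mice. Mrpl33 measured 7.48, 6.47 and 8.07 CPM in BAT AKO, 7.23, 8.67 and 7.66 CPM in BAT control, 6.54, 6.88 and 8.49 CPM in WAT AKO, and 7.38, 6.56 and 9.601 CPM in WAT control. The groups overlapped, and the log2 fold changes were 0.08 in AKO mice (95% interval -0.32 to 0.48) and -0.00 in control mice (95% interval -0.48 to 0.47). These intervals exclude the 2-fold difference at the median of the group. The annotation gives Mrpl33 7326 exonic bases, of which 261 are shared on the same strand with Gm43809, a gene at 0 counts. Mrpl27, the counterpart of a bacterial protein near the peptidyl transferase centre, had 32.4, 27.8 and 28.6 CPM in BAT AKO, 31.0, 30.3 and 29.97 CPM in BAT control, 19.9, 23.8 and 21.03 CPM in WAT AKO, and 24.9, 25.3 and 26.9 CPM in WAT control. It passed the test in AKO mice (log2 0.53, adjusted p = 0.0074) and had a value of 0.24 in control mice (adjusted p = 0.058), both with edgeR.

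Promoter windows, from 250 bases before to 50 bases after the RefSeq start (GRCm38.p6), were found for 69 of the 78 genes in 75 windows, and were searched on both strands for 6 motifs of factors known to act on genes for mitochondrial proteins. The ETS core CCGGAAG, bound by the Gabpa family, was in 34.7% of the group's windows and in 8.86% of all 32851 windows. The NRF1 motif was in 4% against 0.971%, and the same motif with its middle base left free, which includes it, in 17.3% against 4.60%. The YY1 motif AAGATGGC was in 16% against 2.75%. The ERR site AAGGTCA was in 5.33% against 4.72%, and the E-box CACGTG in 9.33% against 7.15%. The medians of the depot difference in control mice, on the log2 scale, were as follows for genes with and without each motif, with no test. They were 1.51 (3 genes) against 0.95 for the NRF1 motif and 1.00 against 0.95 for its form with a free base. They were 0.91 against 1.00 for the ETS core, 1.03 against 0.98 for YY1, 1.198 (4 genes) against 0.92 for the ERR site and 0.92 (5 genes) against 1.00 for the E-box. A match is a description of letters, not a bound site. The windows below are those of the genes with the largest difference, of a gene with the NRF1 motif and of the gene that was lower in BAT. Capitals mark the matched motif, the ETS core from position -37 of Mrpl34 and the NRF1 motif from position -125 of Mrpl39, and no motif matched in Mrps36 or Mrps6. They lie at chr13:100744610-100744909 (minus strand) for Mrps36, chr8:71464676-71464975 (plus) for Mrpl34, chr16:84735195-84735494 (minus) for Mrpl39 and chr16:92058086-92058385 (plus) for Mrps6.
Mrps36: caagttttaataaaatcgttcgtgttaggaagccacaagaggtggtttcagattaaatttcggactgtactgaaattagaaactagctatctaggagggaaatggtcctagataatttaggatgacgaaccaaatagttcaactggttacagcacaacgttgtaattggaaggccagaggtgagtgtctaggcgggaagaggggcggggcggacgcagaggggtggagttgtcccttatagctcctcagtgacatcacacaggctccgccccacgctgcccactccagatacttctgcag
Mrpl34: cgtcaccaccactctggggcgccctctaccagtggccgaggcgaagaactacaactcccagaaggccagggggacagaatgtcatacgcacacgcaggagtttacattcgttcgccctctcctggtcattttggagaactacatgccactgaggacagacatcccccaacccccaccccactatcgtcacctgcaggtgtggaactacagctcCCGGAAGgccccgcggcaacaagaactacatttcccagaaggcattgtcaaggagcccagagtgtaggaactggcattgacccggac
Mrpl39: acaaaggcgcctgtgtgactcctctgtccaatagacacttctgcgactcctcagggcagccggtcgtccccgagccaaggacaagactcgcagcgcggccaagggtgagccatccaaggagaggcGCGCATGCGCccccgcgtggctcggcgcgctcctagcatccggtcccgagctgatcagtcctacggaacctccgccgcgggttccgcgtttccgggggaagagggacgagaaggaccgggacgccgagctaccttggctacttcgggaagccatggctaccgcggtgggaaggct
Mrps6: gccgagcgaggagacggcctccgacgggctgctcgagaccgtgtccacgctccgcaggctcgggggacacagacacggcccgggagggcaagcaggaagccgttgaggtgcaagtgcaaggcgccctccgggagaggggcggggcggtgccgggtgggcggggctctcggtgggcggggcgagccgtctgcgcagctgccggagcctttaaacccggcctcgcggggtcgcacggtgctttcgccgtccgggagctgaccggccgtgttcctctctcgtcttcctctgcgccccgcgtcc

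Most other genes of mitochondrial translation were higher in BAT too. All 5 mitoribosomal proteins with other names were higher in BAT in both genotypes, with medians of 1.07 in AKO and 1.06 in control mice. Among them Ptcd3, an RNA-binding protein of the small subunit, had log2 fold changes of 1.56 in AKO and 1.41 in control mice, and Dap3, a GTP-binding protein of the small subunit, 0.68 in AKO and 0.73 in control mice. Translation factors were higher for 13 of 14 tested genes in each genotype, with medians of 1.31 in AKO and 1.19 in control mice. The elongation factor gene Tufm had 2.14 in AKO and 2.47 in control mice, and the elongation factor gene Gfm1 2.19 in AKO and 2.18 in control mice. Of 20 mitochondrial tRNA synthetase and amidotransferase genes, 19 were higher in AKO and 18 in control mice, with medians of 0.86 in AKO and 1.00 in control mice. The alanyl-tRNA synthetase gene Aars2 had 1.68 in AKO and 1.71 in control mice. Ribosome assembly and rRNA modification genes were higher for 21 of 27 in each genotype, with medians of 0.86 in AKO and 0.78 in control mice. The rRNA methyltransferase gene Mrm3 had 1.69 in AKO and 1.67 in control mice, and the assembly GTPase gene Eral1 1.24 in AKO and 1.19 in control mice. None of these lists had a gene lower in BAT at the threshold.

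Products of mitochondrial DNA and the respiratory chain differed by more. The 12 tested mitochondrially encoded mRNAs were all higher in BAT, with medians of 3.24 in AKO and 2.57 in control mice. Nuclear genes of the respiratory chain and ATP synthase were higher for 76 of 79 in AKO mice and for 75 of 79, with 1 lower, in control mice, with medians of 2.47 in AKO and 2.39 in control mice. In control mice 55 of those 79 exceeded 4-fold, against 3 of the 77 ribosomal protein genes. In summed CPM, the nuclear respiratory genes were 5.93 times higher in BAT in AKO mice and 5.86 times in control mice, and the mitochondrial mRNAs 7.43 times in AKO and 6.00 times in control mice. Cytosolic ribosomal proteins, the counterparts outside mitochondria, had medians of -0.72 in AKO and -0.18 in control mice. Of these genes, 0 were higher and 66 lower of 79 in AKO mice, and 3 higher and 8 lower of 78 in control mice. Lymphocyte markers differed between depots and among WAT libraries, and their part in these values was not tested. Mitochondrial transcription genes were higher for 9 of 10 in AKO and 7 of 10 in control mice, with the RNA polymerase Polrmt at 1.26 in AKO and 1.32 in control mice and the helicase Twnk at 1.33 in AKO and 1.80 in control mice. Of 11 biogenesis regulators, 7 were higher and 2 lower in AKO mice and 7 higher in control mice. Esrra, a nuclear receptor of mitochondrial genes, had 2.55 in both genotypes, and the coactivator Ppargc1a 3.40 in AKO and 3.00 in control mice. Among factors of the searched motifs, Gabpa, Yy1 and Nrf1 had smaller values than Esrra, a factor of the ERR site. In AKO and in control mice these values were 1.38 and 0.78 for Gabpa, 0.35 and 0.19 for Yy1, and -0.22 and 0.29 for Nrf1. Yy1 in control mice and Nrf1 in both did not pass the test.

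**Figure D4:**
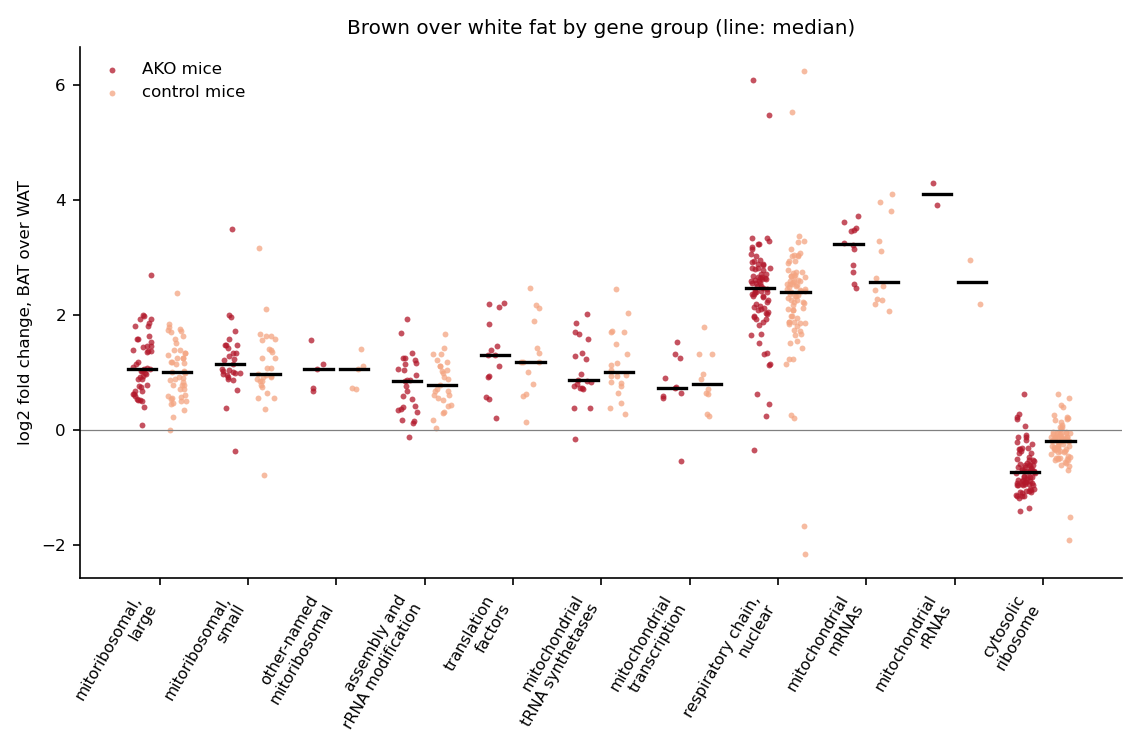
Log2 fold change of BAT over WAT for each gene (points) of the mitoribosomal groups, of related gene lists and of the cytosolic ribosome, in AKO mice and in control mice, with the median as a line. Mitoribosomal medians lie near 1, those of nuclear respiratory genes near 2.4 and those of the cytosolic ribosome below 0.

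The rRNAs of the particle were read in polyA-selected RNA, which limits what their level says. mt-Rnr1, the small subunit rRNA, measured 2492, 2849 and 1688 CPM in BAT AKO, 1333, 1242 and 1995 CPM in BAT control, 160.4, 219 and 109.6 CPM in WAT AKO, and 299, 223 and 476 CPM in WAT control. mt-Rnr2, the large subunit rRNA, measured 3157, 3886 and 2908 CPM in BAT AKO, 1912, 1871 and 2744 CPM in BAT control, 161, 235 and 137 CPM in WAT AKO, and 270.2, 228 and 339.9 CPM in WAT control. Both were higher in BAT, by log2 3.91 for mt-Rnr1 and 4.29 for mt-Rnr2 in AKO mice and by 2.19 and 2.95 in control mice. AKO over control gave 0.64 for mt-Rnr1 and 0.63 for mt-Rnr2 in BAT (adjusted p = 0.34 and 0.28 with edgeR). In WAT the values were -1.05 and -0.67 (adjusted p = 0.17 and 0.19). The difference between depots was 1.65 and 1.26 (adjusted p = 0.12 and 0.11), and edgeR called none of these. Unadjusted, both rRNAs were under 0.05 in each depot, where 13.6% of all genes in BAT and 22.6% in WAT were. AKO and control did not overlap for mt-Rnr2 in BAT and for mt-Rnr1 in WAT, where 19.7% and 30.4% of all genes did not.

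In BAT, levels of the mitochondrial ribosomal protein genes were close in AKO and control mice. None of the 77 passed the adjusted threshold in edgeR, where 0.0771% of 14265 genes did (0.0491% higher and 0.028% lower), and DESeq2 and limma voom called none. At an unadjusted p under 0.05 there were 3 genes (3.896%), against 13.6% of all genes. The log2 fold changes of AKO over control had a median of 0.03 and ran from -0.22 to 0.30, and the median size was 0.08 against 0.16 over all genes. The sign of the median changed with library totals, at -0.0090. Without BAT control 2, 34 of all genes were called higher and 61 lower, against 7 and 4 with it, and none of the 77. The 95% intervals of all 77 genes stayed within a 1.5-fold change, as did those of 52.6% of all genes. The same held for 96.2% of the 79 nuclear respiratory chain and ATP synthase genes and of the 78 cytosolic ribosomal protein genes. AKO and control did not overlap for 6 genes higher and 7 lower in AKO, or 13 of 77, where 8.19% and 11.5% of all genes, 19.7% in all, did not.

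The genes with the smallest p in BAT were Mrpl47, Mrps31 and Mrps36, all higher in AKO. Mrpl47 measured 28.5, 27.5 and 31.4 CPM in BAT AKO, against 23.7, 23.3 and 24.9 CPM in BAT control (log2 0.30, SE 0.09, unadjusted p = 0.010, adjusted p = 0.28 with edgeR). Mrps31, specific to mitochondria, measured 44.0, 43.0 and 48.5 CPM in BAT AKO, against 40.3, 38.9 and 37.3 CPM in BAT control (log2 0.24). Mrps36 had a value of 0.23. In these 3 genes AKO and control did not overlap. On the negative side, the smallest p belonged to Mrps7 (log2 -0.15), Mrps6 (-0.22) and Mrps24 (-0.12), none under 0.05 unadjusted.

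In WAT none of the 77 passed the adjusted threshold either, where 0.0189% of 15915 genes did. At an unadjusted p under 0.05 there were 6 (7.79%), against 22.6% of all genes. DESeq2 called 1 gene lower and limma voom none. The share over all genes rested on WAT control 2, since without it 1066 genes were called higher and 583 lower, against 3 higher and 0 lower with it, and still none of the 77. The median was -0.06, with 26 positive and 51 negative values from -0.59 to 0.33, and the median size was 0.11 against 0.27 over all genes. The 95% intervals lay within 2-fold for all 77 and within 1.5-fold for 70 (90.9%), against 34.1% of all genes. AKO and control did not overlap for 3 genes higher and 6 lower in AKO, where 15.9% and 14.5% of all genes, 30.4% in all, did not. The sign of the median was not stable: library totals moved it to 0.075, with all genes at 0.14, and without WAT control 1 it was 0.021. Cytosolic ribosomal proteins in the same libraries had a median of 0.52, with 0 of 78 called and 48 under 0.05 unadjusted. The 79 nuclear respiratory chain and ATP synthase genes were as close as the group, with 92.4% of intervals within 1.5-fold and 1 gene under 0.05 unadjusted.

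Mrps6 had the largest decrease in value in WAT, at 37.1, 50.2 and 36.6 CPM in AKO, against 60.8, 59.9 and 63.1 CPM in control. The groups did not overlap, and edgeR gave log2 -0.59 (SE 0.15, 95% interval -0.95 to -0.23, unadjusted p = 0.0066, adjusted p = 0.12). DESeq2 gave -0.58 with an adjusted p of 0.016, and a fit of all 12 libraries in edgeR -0.57 with 0.038, and neither called another gene of the group. Over all genes DESeq2 called 700 higher and 979 lower of 15915, and the fit of all 12 libraries 439 higher and 591 lower of 16391. Over all alternatives the adjusted p ran from 0.016 to 0.34. Slc5a3, which shares bases with it, had -0.57 (adjusted p = 0.19). Mrpl20, whose bacterial counterpart joins early in large subunit assembly, measured 32.3, 37.3 and 35.3 CPM in AKO, against 40.0, 44.0 and 45.7 CPM in control (log2 -0.33, adjusted p = 0.15 with edgeR). Mrpl17 had -0.27. The values above 0 with the smallest p were those of Mrps5 (0.25, unadjusted p = 0.030), with 36.6, 36.6 and 41.2 CPM in AKO against 33.1, 31.7 and 30.2 CPM in control, of Mrpl9 (0.31) and of Mrps35 (0.33).

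**Figure D5:**
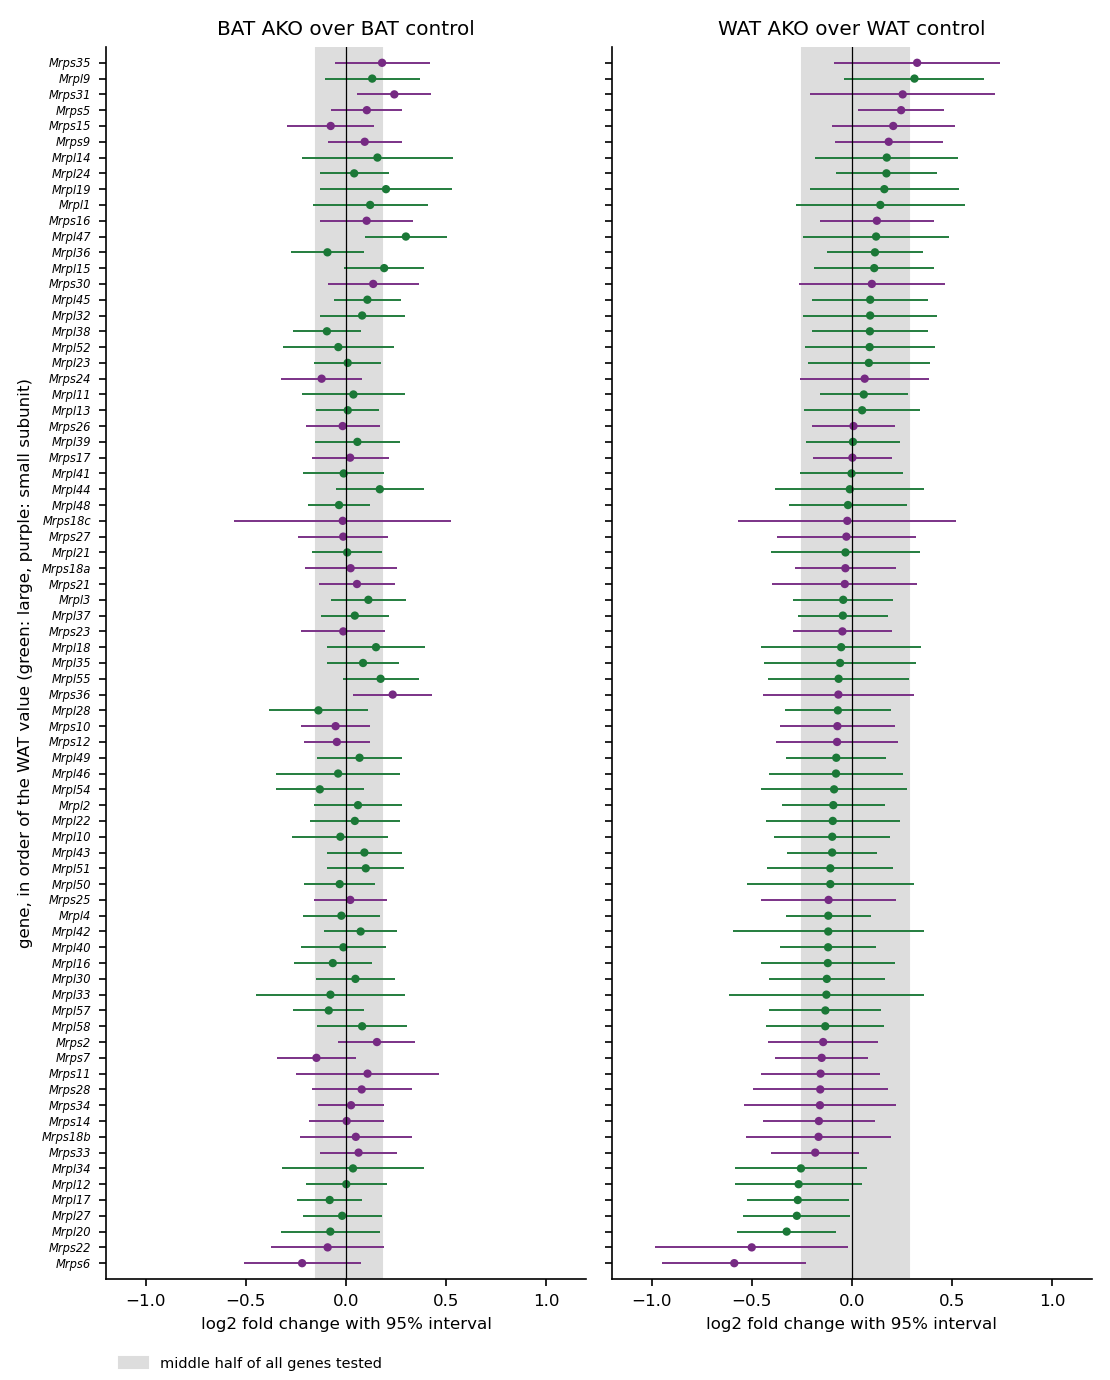
Log2 fold change of AKO over control with its 95% interval for 77 genes in BAT (left) and WAT (right); the grey band holds the middle 50% of all genes tested. Points lie between -0.22 and 0.30 in BAT and between -0.59 and 0.33 in WAT, with Mrps6 at the low end of both.

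The effect of Mcu loss did not differ between depots at the threshold for any of the 77 genes in edgeR, where 0.275% of 16391 genes did (0.153% with a positive and 0.122% with a negative difference). No gene had an unadjusted p under 0.05, against 18.4% of all genes. Without WAT control 2 the calls over all genes were 242 with a positive and 681 with a negative difference, against 25 and 20 with it, and none of the 77. The difference of the effects, BAT minus WAT, had a median of 0.01, which was -0.13 with library totals, and its 95% interval lay within 1.5-fold for 64 genes. The smallest p belonged to Mrpl36, which had 41.5, 42.4 and 40.8 CPM in BAT AKO against 48.1, 43.3 and 43.6 CPM in BAT control, and 21.7, 21.7 and 23.2 CPM in WAT AKO against 21.5, 20.7 and 18.4 CPM in WAT control. Its value was -0.25 (95% interval -0.51 to 0.00, unadjusted p = 0.053, adjusted p = 0.28 with edgeR). Mrps15 had -0.32 and Mrps2 0.26, also not called.

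The muscle-rich libraries had no fixed place among the others. WAT AKO 2 and WAT control 1 had the highest summed CPM of their groups, 2196 and 2285, but without TMM scaling their shares of counts, 0.249% and 0.240%, were in the middle of their groups. BAT AKO 2 had the lowest summed level of its group, 4570 CPM. Without these and BAT AKO 2, the median between depots was 1.197 in AKO mice with 74 of 77 genes higher, and 1.10 in control mice with 73 higher and 1 lower. The AKO over control medians were then 0.04 in BAT and -0.04 in WAT, with no gene called. B lymphocyte markers took 0.129% to 0.255% of counts in WAT AKO, 0.0799% to 0.151% in WAT control and 0.0074% or less in BAT, and their part in the WAT values was not tested.

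Several genes of the group share exonic bases with another gene, and the sources do not state whether counting used strand. On the same strand Mrps34 shares 763 bases with Nme3, which had 0 counts in all libraries, Mrps24 shares 226 with Urgcp and Mrpl3 shares 248 with Gm38077. On opposite strands the largest overlaps are those of Mrps25 with Nr2c2 (4590 bases), Mrpl19 with Gcfc2 (1962), Mrps34 with Mapk8ip3 (1309) and Mrpl48 with Rab6a (708). Mrps18b, Mrps30, Mrpl47, Mrpl24 and Mrpl43 share 638, 623, 616, 594 and 507 bases with Gm16279, B430218F22Rik, Ndufb5, Rrnad1 and Twnk in that order, and the gene pair Mrpl46 and Mrps11 overlap each other by 173. The levels of these genes are uncertain to that extent.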

How the data were processed

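RNA was polyA-selected and libraries were made with a VAHTS kit, per the labels' protocols. The submitters' processing notes name HISAT2 2.1.0, Bowtie2 2.2.3, HTSeq 0.6.0 and build mm10, without the role of each; strand and counting mode are not stated. The authors deposited whole-number read counts per Ensembl gene and FPKM values for 12 libraries. The deposited FPKM equal counts per length and library total, within 9.12e-09 of the value for genes of 20 counts or more. Names came from GENCODE M21, which matched 52403 of 52550 IDs and left 147 without a symbol. The gene group, the lists and the motifs were chosen with earlier results of these data known, while membership followed from the gene name alone.

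Counts were tested with edgeR 4.0.16 (R 4.3.3) by the quasi-likelihood test with TMM and filterByExpr (minimum count 10, minimum total 15), on the 6 libraries of each comparison and on all 12 for the difference between depots. P-values were adjusted (Benjamini-Hochberg, threshold 0.05) over all genes tested. Named genes are those with the smallest p or largest fold in each direction, and the highest and lowest by FPKM. Beside them Mrpl12, Mrpl27, Mrpl40, Mrpl42, Mrps26, the 2-oxoglutarate dehydrogenase genes and genes sharing exon bases were named after their values were seen. Alternatives used DESeq2 1.42.0, limma 3.58.1 (voom, and log2(FPKM + 1) or log2(FPKM + 0.1)), other scalings and filters, and each library left out. The test was checked on simulated counts with the same dispersion for every gene and no outlier libraries. That check does not cover the spread of the libraries used here. Replicate libraries differed by more than counting noise. Intervals are 95% intervals of the fit. The largest depth was 18967159 counts and the smallest 15692588. Same-numbered BAT and WAT libraries deviated together, with correlations of 0.567, 0.676 and 0.136 in AKO mice and 0.517, 0.238 and 0.450 in control mice. In AKO mice, BAT 1 with WAT 3 (0.431) and BAT 3 with WAT 1 (0.236) did so too, while the remaining unlike pairs were negative. The 0.676 joins the muscle-rich libraries BAT AKO 2 and WAT AKO 2. The 0.517 joins BAT control 1 and WAT control 1, with the most muscle of their groups (0.200% and 1.42%). Within a depot, pairs across genotypes, which cannot be the same mouse, ran from -0.616 to 0.653. The highest joined the muscle-rich WAT AKO 2 and WAT control 1. BAT AKO 2 with BAT control 1 had 0.576. These correlations therefore cannot show whether the numbers pair the depots. The labels do not say so, and whether mice were shared was not tested. FPKM and count tests address the same deposited reads. No protein sequences were used here.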

Additional observations from a re-analysis of the deposited data

How the results depend on the processing

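Of 310 values of counts and medians under alternative settings, 275 stayed within their bounds. Medians of AKO over control and of the difference lie near 0 and changed sign under some of them, so their direction is not stable. The direction of the depot difference held in every alternative run, and its size depended on scaling. With library totals the median was 0.49 in AKO and 0.65 in control mice. On log2(FPKM + 1) it was 0.45 and 0.59, also with a mean FPKM of at least 1, and on log2(FPKM + 0.1) 0.48 and 0.64. Without the muscle-rich libraries it was 1.197 and 1.10, and in a fit of all 12 libraries 1.00 in AKO mice. With each library left out in turn it ran from 1.02 to 1.16 in AKO and from 0.95 to 1.10 in control mice. The number of genes lower in BAT AKO than in WAT AKO was 0, and became 2 with library totals and 1 without a filter, with at least 2 CPM, in DESeq2, in each FPKM fit, in the fit of all 12 libraries and at an adjusted p under 0.1. Leaving out libraries gave 0 to 1, the 1 without WAT AKO 3.

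For AKO over control in WAT, the median became 0.075 with library totals, 0.067 on log2(FPKM + 1) with and without its filter, and 0.083 on log2(FPKM + 0.1), and ran from -0.11 to 0.021 with a library left out, the highest without WAT control 1. The number lower was 1, Mrps6, in DESeq2 and in the fit of all 12 libraries. In BAT the median of AKO over control, 0.03, became -0.0090 with library totals, -0.0060 on log2(FPKM + 1), -0.0052 with its filter and -0.0062 on log2(FPKM + 0.1). The difference between depots had medians of -0.13 with library totals, -0.11 on log2(FPKM + 1) with and without its filter, and -0.13 on log2(FPKM + 0.1). FPKM divide by library totals as well, so the FPKM runs and the run with library totals share the same scaling. For AKO over control in WAT, library totals moved the median of all genes from 0.0049 to 0.14. The distance of the group from it was -0.063 with TMM and -0.065 with library totals. Why the scalings differ between the groups was not tested.

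With the replicate number as a block, the depot comparison gave 74 higher and 0 lower in AKO mice and 74 higher and 1 lower in control mice, and the block changed no count by more than 1.5 times. AKO and control libraries of the same number showed no common direction, with correlations of -0.616, -0.288 and 0.114 in BAT and -0.472, -0.019 and 0.219 in WAT. The block called 0 genes of the group there. DESeq2 called 700 and 979 of all genes higher and lower in WAT AKO and edgeR 3 and 0, and the count of the group was 0 with each library left out. Single genes of under 200 counts, such as Mrpl33, have wide intervals at this depth.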
